A study of Homo sapiens with 40 samples.

Results

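Divergent promoters, the intervals from which 2 protein-coding genes on opposite strands are transcribed away from each other, were examined in the chromatin accessibility lists of BT474 and BT474R cells. A pair was any protein-coding gene on the minus strand and any on the plus strand of GENCODE release 44 whose starts faced apart and lay within 1000 bp of each other. There were 887 such pairs, holding 1710 of 19970 protein-coding genes (8.56%), and the interval between the starts had a median length of 132 bp (quartiles 69 and 248.5 bp, range 1 to 995 bp). Peaks of all 40 libraries that shared at least 1 bp were merged, regions found in at least 2 libraries were kept, and 765 of these 71600 consensus regions touched an interval between paired starts. They covered 817 of the 887 pairs (92.1%). A pair of regions was found at 8 pairs, and 57 regions served more than 1 pair. A further 509 oppositely oriented pairs whose gene records overlap at their starts did not meet the rule and were not used.

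BT474 is a cell line from a ductal carcinoma of the breast that overexpresses HER2 and responds to the HER2 antibody trastuzumab, and BT474R is a single resistant clone grown out of it under the antibody, so a difference between the lines is a difference between a line and 1 clone. Cells of both lines were starved of serum and collected untreated at 0 h (baseline) or after vehicle (control), epidermal growth factor (EGF, which binds EGFR) or heregulin (HRG, which binds HER3 and HER4) for 1, 12 and 24 h. Each of the 20 groups had 2 ATAC-seq libraries, and the labels do not say whether these came from separate cultures, so p-values measure the spread between libraries. ATAC-seq marks open DNA by transposase insertion, and peaks had been called in each library separately, each with a score, the area under the curve of significance of the peak.

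Bidirectional promoters are common in mammalian genomes, and many serve housekeeping genes such as those for DNA repair, mitochondrial proteins and chaperones. They are usually GC-rich, lie in CpG islands, seldom hold a TATA box and often hold sites for ETS factors, NRF1 or NF-Y, which reads the CCAAT box. The 2 genes share 1 nucleosome-free interval, so a single accessible region can serve both.

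The intervals of a few well-known pairs are shown first, because they give the length and base composition that the accessibility values refer to. Sequences are the plus strand of GRCh38 from the start of the minus-strand gene to the start of the plus-strand gene, and capitals mark a match to one of the motifs searched on either strand. PPAT and PAICS encode enzymes of purine synthesis, TK1 thymidine kinase, SARS2 and MRPS12 a mitochondrial seryl-tRNA synthetase and a mitochondrial ribosomal protein, FEN1 the flap endonuclease of DNA replication, and COL4A3 and COL4A4 chains of basement membrane collagen.
PPAT/PAICS (chr4:56435615-56435741): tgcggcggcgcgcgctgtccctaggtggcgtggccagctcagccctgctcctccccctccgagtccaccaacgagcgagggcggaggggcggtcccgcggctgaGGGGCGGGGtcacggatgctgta
TK1/AFMID (chr17:78187233-78187358): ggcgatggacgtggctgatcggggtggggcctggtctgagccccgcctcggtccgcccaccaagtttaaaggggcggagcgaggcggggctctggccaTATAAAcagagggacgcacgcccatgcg
SARS2/MRPS12 (chr19:38930763-38930944): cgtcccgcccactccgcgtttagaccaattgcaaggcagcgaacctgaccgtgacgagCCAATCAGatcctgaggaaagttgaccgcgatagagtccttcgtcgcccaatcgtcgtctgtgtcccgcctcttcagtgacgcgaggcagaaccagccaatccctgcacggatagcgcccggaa
TMEM258/FEN1 (chr11:61792802-61792911): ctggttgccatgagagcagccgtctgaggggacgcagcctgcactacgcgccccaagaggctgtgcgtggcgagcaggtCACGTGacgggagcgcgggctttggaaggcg
COL4A4/COL4A3 (chr2:227164453-227164624): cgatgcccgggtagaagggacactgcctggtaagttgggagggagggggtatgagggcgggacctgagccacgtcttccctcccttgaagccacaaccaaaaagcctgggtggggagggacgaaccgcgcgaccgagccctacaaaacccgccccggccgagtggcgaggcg

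In these letters the capitals mark a GC box in PPAT/PAICS, a TATA box in TK1/AFMID, a CCAAT box in SARS2/MRPS12 and an E-box in TMEM258/FEN1, and none of the searched motifs in COL4A4/COL4A3. The G and C content was 74.8% in PPAT/PAICS, 68.3% in TK1/AFMID, 59.9% in SARS2/MRPS12, 68.2% in TMEM258/FEN1 and 66.3% in COL4A4/COL4A3.

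Base composition and motifs were compared over windows of 300 bp centred on the median summit of each region. The median G and C content of the divergent regions was 65.3%, against 67.3% for the 9128 regions that held the start of another protein-coding gene without such a partner (single starts) and 48.0% for the 55566 regions more than 1000 bp from any gene start (distal). The median ratio of observed to expected CpG was 0.879, 0.846 and 0.205 in the same order. The motifs searched on both strands were CCGGAAG for ETS factors, CCAATNNG for the CCAAT box, GGGGCGGGG for the GC box, AAGATGGCG for YY1, TATAAA for the TATA box, TGACGTCA for the CRE, CACGTG for the E-box and TGANTCA for AP-1, and NRF1 and ZBTB33 by name. None of these motifs contains another. The ETS motif lay in 29.2% of the divergent windows, in 17.7% of the single-start windows and in 4.81% of all 71600 windows. The CCAAT box lay in 26.3% of divergent, 19.4% of single-start and 10.1% of all windows, NRF1 in 13.1%, 10.4% and 2.00%, and the CRE in 4.18%, 2.89% and 0.800%. The GC box was in 23.3% of the divergent windows and in 27.2% of the single-start windows. The YY1 motif was in 4.31%, 3.55% and 0.705% of divergent, single-start and all windows, ZBTB33 in 1.18%, 0.734% and 0.134%, and the E-box in 10.8%, 9.62% and 5.78%. The AP-1 motif was in 2.35% of divergent, 4.57% of single-start and 22.4% of distal windows, and the TATA box in 3.53%, 3.78% and 15.8%. These shares describe letters in a window, and occupancy by a factor was not measured.

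Most divergent promoters were open in every library. A region was called open in a library if at least 1 peak of that library lay in it. Of the 765 regions, 690 (90.2%) were open in all 40 libraries, against 78.6% of single starts, 60.5% of the 1895 regions that held only the start of a long noncoding RNA gene, 26.6% of distal regions and 35.1% of all regions. Seen from the genes, 1545 of the 1710 starts in pairs (90.4%) lay inside a consensus region, against 9840 of 18260 starts of other protein-coding genes (53.9%). The divergent regions were also wider, with a median of 1390 bp against 1212 bp for single starts and 483 bp for distal regions. A region merges the peaks of up to 40 lists, so its width grows with the number of lists that hold it.

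The strength of a region in a library was expressed as its list percentile, the rank of its top peak score within that library's list on a scale of 0 to 100. The mean over open libraries had a median of 84.7 over the divergent regions (quartiles 71.0 and 93.1), against 76.7 for single starts, 62.0 for long noncoding RNA starts and 26.03 for distal regions. The highest mean percentiles among regions open in all libraries were those of ORMDL3/LRRC3C at 99.9 (ORMDL3 regulates sphingolipid synthesis and lies close to ERBB2 on chromosome 17), SKA2/PRR11 at 99.9, CEP170/SDCCAG8 at 99.9 and MBOAT7/TSEN34 at 99.8. The ORMDL3/LRRC3C region ranged from 99.87 to 99.98 over the 40 libraries and was 7769 bp wide. The lowest were those of SIRT3/PSMD13 at 32.5, KCTD10/UBE3B at 38.6, GPBP1L1/TMEM69 at 42.5 and RECQL5/SAP30BP at 44.7, and their regions were only 467, 289, 484 and 705 bp wide. SIRT3/PSMD13, a mitochondrial deacetylase and a proteasome subunit, ranged from 28.4 to 49.0 (median 40.2) in BT474 and from 4.86 to 37.8 (median 27.6) in BT474R.

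In nearly all cases 1 region held both starts, in 780 of 825 combinations of a pair and a region (94.5%). Regions were chosen for touching the interval, and their median width of 1390 bp stands beside a median interval of 132 bp, which favours this. Whether a region acts on both genes was not measured. The summit, taken as the median over the open libraries, lay between the starts in 400 combinations (48.5%), inside the minus-strand gene in 219 (26.5%) and inside the plus-strand gene in 206 (24.97%). Its median distance from the middle of the interval was 72.0 bp, and 72.8% of summits lay within 150 bp of the middle. Where the starts were 1 to 100 bp apart, 99.7% of 314 regions held both starts, the median summit distance was 60.0 bp and the median list percentile was 80.3. Between that and 300 bp the values were 97.1% of 350 regions, 63.2 bp and 86.6, and beyond 300 bp 78.9% of 161 regions, 200 bp and 88.9. The share of pairs with a region was alike at the 3 distances, at 91.8%, 92.5% and 91.8%.

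**Figure D1:**
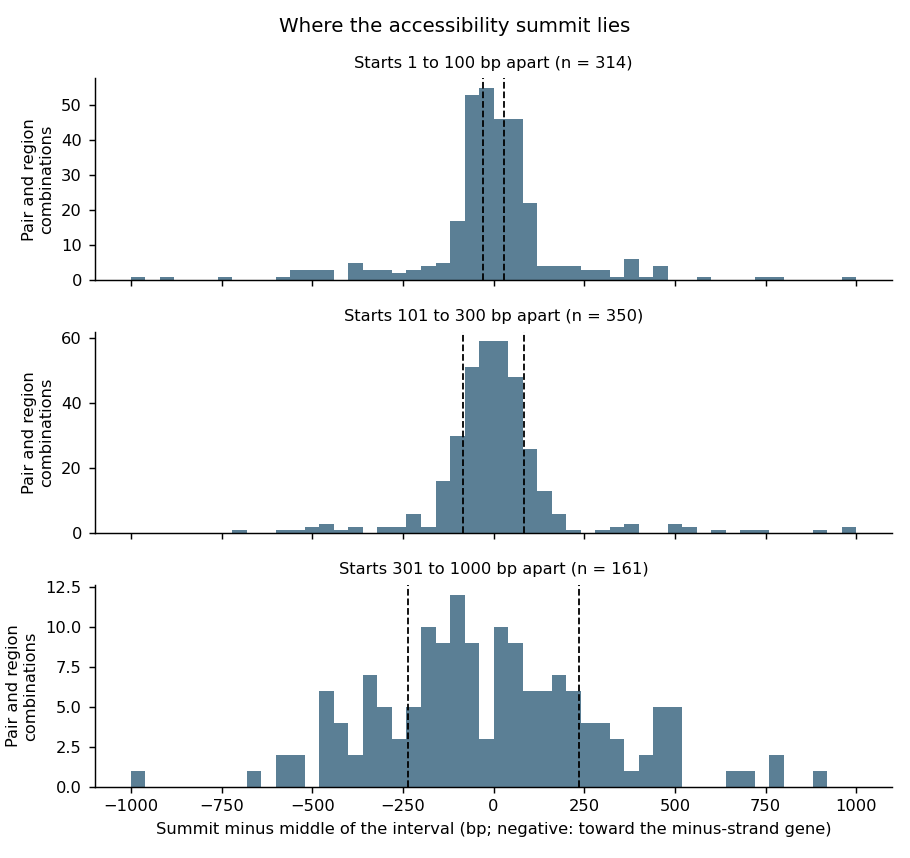
Histograms of the distance in bp from the middle of the interval between paired starts to the median summit, for 314, 350 and 161 combinations of a pair and a region with starts up to 100, up to 300 and up to 1000 bp apart; dashed lines mark the starts of a pair of median length. Summits gather around the middle of short and medium intervals, with median distances of 60.0 and 63.2 bp, and spread to both sides of long ones, with a median distance of 200 bp.

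No consensus region was found at 70 pairs, of which 65 had no peak in any library and 5 a peak in 1 library only. Their starts were about as far apart as those of the other pairs (median 126 against 133 bp), and their intervals held less G and C (median 60.7% against 66.3%). The nearest region lay a median of 5199 bp away, and within 2000 bp for 25 of the 70. In alphabetical order the first 6 pairs with no peak were ANGEL1/LRRC74A, ARRDC5/UHRF1, ATP5MJ/TDRD9, BOLA2/SLX1B, BST2/MVB12A and BTBD18/CTNND1. BOLA2/SLX1B lies in duplicated sequence, where reads may map to more than 1 copy, and how such reads were treated is not given in the sources used here. COL4A6/COL4A5, the other collagen pair that met the rule, also had no peak in any library and its nearest region was 107779 bp away.

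The 10 pairs of a list of 26 textbook divergent promoters that met the rule were described one by one, and 9 had a region. PDCD10/SERPINI1 had a mean list percentile of 99.3, PPAT/PAICS of 97.9, NPAT/ATM of 95.3, TMEM258/FEN1 of 89.4, TK1/AFMID of 89.0, PRKDC/MCM4 of 88.5 and SARS2/MRPS12 of 87.6. All of these were open in 40 of 40 libraries. CCT4/COMMD1, which serves a chaperonin subunit, was open in 20 BT474 and 17 BT474R libraries with a mean of 48.7. COL4A4/COL4A3 was open in 20 and 13 libraries.

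Levels by line, arm and time were then compared. In BT474 between 749 and 759 of the 765 regions were open per library, with 756 ± 2.64 (SD, n = 20), and the median list percentile of the open ones was 86.9 ± 0.487 (range 85.7 to 87.7). In BT474R between 708 and 758 were open, with 739.5 ± 15.1 (SD, n = 20), and the median was 83.8 ± 2.55 (range 78.1 to 86.9). Across the 10 BT474 groups the mean of the group's median percentiles stayed between 86.3 (HRG 24 h) and 87.4 (control 24 h, both n = 2). In BT474R it was 86.5 ± 0.201 for control, 85.2 ± 0.552 for EGF and 86.4 ± 0.752 for HRG at 1 h, and 80.2 ± 2.93, 80.1 ± 0.554 and 82.2 ± 1.24 at 12 h. At 24 h it was 83.3 ± 0.931, 84.8 ± 0.454 and 85.1 ± 1.95, and 84.0 ± 3.42 at baseline (SD, n = 2 each). The BT474R control and EGF groups at 12 h also had the shortest lists, with 32479 and 40331 peaks in the control and 38205 and 37476 in the EGF libraries, against 47571 to 56846 peaks in the BT474 libraries. The percentile moved with list length, and the part of list length in it was not tested. Single starts moved alongside, at 81.6 ± 0.652 in BT474 and 78.2 ± 2.82 in BT474R.

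**Figure D2:**
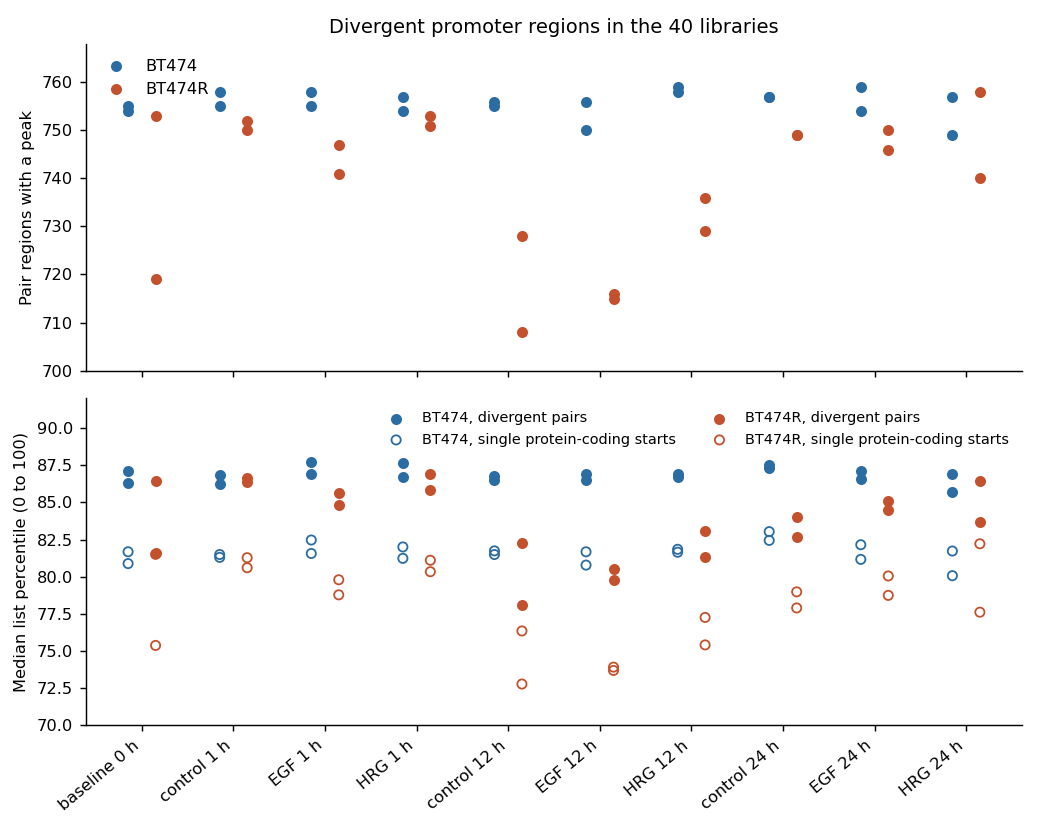
Number of the 765 divergent regions with a peak (top) and median list percentile on a scale of 0 to 100 (bottom; filled points divergent regions, open points single protein-coding starts) for each library, with 2 points per line at each treatment and time; both vertical axes are cut. BT474 libraries stay between 749 and 759 regions, while BT474R libraries at 12 h fall to between 708 and 736.

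Because the list percentile depends on how many weak peaks a list holds, differences were tested on a second scale. Among the regions with a peak in every library of a comparison, the top peak score was ranked within each library from 0 to 100 (shared-region percentile), and limma was fitted over all such regions with Benjamini-Hochberg adjustment. Without read totals, the depth of each library was unknown. In a bulk sample more cells with the site open cannot be told apart from a site that is more open in each cell. The labelled cell type was checked on defining genes. A peak lay within 1000 bp of the gene start of EPCAM, KRT8, KRT18, ERBB2 and CDH1 in all 40 libraries, and of GATA3 in 19 BT474 and no BT474R libraries, although all 40 had a peak elsewhere in GATA3. None of the 40 libraries had one at the starts of the leukocyte genes PTPRC and CD3E or of the fibroblast genes PDGFRB, DCN and COL1A2.

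The first comparison asked how the resistant clone differed from its parent, over all 10 conditions. The median absolute difference of divergent promoters was smaller than that of all regions. Of 690 regions tested, 203 were called higher and 361 lower in BT474R (adjusted p under 0.05), where 41.5% and 42.5% of all 25166 tested regions were called higher and lower. Since 564 of 690 (81.7%) is close to the background, the call itself says little about the pairs, and the size of the difference is described instead. The median absolute difference was 5.02 percentile points for the divergent regions, 6.19 for 7175 single starts and 7.93 for all regions. A difference of at least 10 points was found at 187 divergent regions (27.1%), of which 39 were higher and 148 lower in BT474R, against 33.3% of single starts and 41.7% of all regions. The median difference was -1.65 points for divergent regions, -2.28 for single starts, 1.68 for distal regions and -0.15 for all.

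The line difference of a divergent region went along with that of its neighbourhood. For 665 regions with at least 5 other shared regions within 1 Mb, the difference and the median difference of those neighbours had a Pearson correlation of 0.63 and a Spearman correlation of 0.711, given as a description across regions that share libraries and chromosomes. Of the 178 that differed by at least 10 points, 163 (91.6%) had the same sign as their neighbours. The chromosome medians ran from -9.31 points on chromosome 5 (24 divergent regions, median of all tested regions -3.94) and -8.72 on chromosome 11 (50 regions, -6.27) to 7.20 on chromosome X (13 regions, 5.13) and 11.5 on chromosome 21 (6 regions, 7.88). Copy number was not measured and its part in these values was not tested.

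The regions with the smallest p are printed for their letters, since TUFM/SH2B1 was the foremost one that was higher in BT474R and FBXO8/CEP44 and LCMT2/ADAL the foremost that were lower. Capitals mark the ETS motif, which all 3 intervals held. Among the other foremost regions, the intervals of ANO8/GTPBP3, GIN1/PPIP5K2 and CGGBP1/C3orf38 held none of the searched motifs. Those of CETN2/NSDHL, SNRNP40/ZCCHC17, C1orf109/CDCA8 and BTBD7/UNC79 held others but not ETS. A link between motif and difference was not tested.
TUFM/SH2B1 (chr16:28846348-28846600): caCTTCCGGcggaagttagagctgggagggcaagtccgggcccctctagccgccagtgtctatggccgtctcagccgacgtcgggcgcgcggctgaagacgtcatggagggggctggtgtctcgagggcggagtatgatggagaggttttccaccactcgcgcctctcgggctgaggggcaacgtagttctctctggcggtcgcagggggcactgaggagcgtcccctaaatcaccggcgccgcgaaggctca
FBXO8/CEP44 (chr4:174283667-174283730): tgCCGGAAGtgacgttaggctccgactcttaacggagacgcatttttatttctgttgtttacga
LCMT2/ADAL (chr15:43330582-43330672): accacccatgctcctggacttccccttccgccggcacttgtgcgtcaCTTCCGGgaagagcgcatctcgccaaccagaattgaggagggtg

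Among the 6 foremost higher regions, TUFM/SH2B1 (TUFM is the mitochondrial elongation factor Tu and SH2B1 an adaptor of receptor tyrosine kinases) ranged from 72.9 to 81.0 (median 77.8) in BT474 and from 93.24 to 98.001 (median 97.7) in BT474R. The difference was 19.5 ± 0.425 (SE) points (adjusted p = 8.73e-22, limma). The region was called as 2 or more peaks in 20 of 20 BT474 libraries and in 1 of 20 BT474R libraries, and with the scores of all its peaks summed the difference was 10.4 points (adjusted p = 2.21e-21). Its neighbours had a median difference of 11.6 points.

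SNRNP40/ZCCHC17, which serves a protein of the U5 spliceosomal particle, had a median of 68.5 (62.8 to 72.5) in BT474 and 85.2 (80.0 to 88.1) in BT474R, a difference of 16.4 points beside a neighbour median of 15.7. CETN2/NSDHL (centrin 2 and an enzyme of cholesterol synthesis) differed by 12.5 points beside 10.3, RRP9/PARP3 by 11.6 beside 6.87, C1orf109/CDCA8 (CDCA8 is borealin of the chromosomal passenger complex) by 9.09 beside 19.2 and ANO8/GTPBP3 by 9.01 beside 6.67. None of these overlapped between the lines, which their choice by the smallest p of this comparison favours. The share of all regions without overlap was not counted. C1orf109/CDCA8 was split into several peaks in 39 libraries, and its difference was 4.50 points on summed scores.

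FBXO8/CEP44 (an F-box protein and a centriolar protein) ranged from 50.8 to 81.0 (median 76.4) in BT474 and from 7.15 to 24.5 (median 12.8) in BT474R. The difference was -61.4 ± 1.496 points (adjusted p = 6.14e-21, limma), and -45.4 on summed scores. The region was split into several peaks in 1 BT474 and 11 BT474R libraries. Only 3 shared regions lay within 1 Mb, with a median of -7.11. LCMT2/ADAL (an enzyme of tRNA modification and an adenosine deaminase-like protein) ranged from 43.9 to 69.4 (median 64.9) in BT474 and from 0.763 to 22.6 (median 5.58) in BT474R, a difference of -56.6 ± 1.56 points (adjusted p = 5.91e-20) beside a neighbour median of -4.41 over 17 regions.

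The other foremost lower regions were GIN1/PPIP5K2 with -35.7 points beside -27.1 over 4 neighbours, CGGBP1/C3orf38 with -15.0 beside -16.8, METTL4/NDC80 (NDC80 is a kinetochore protein) with -28.4 beside 1.09 over 19 neighbours, and BTBD7/UNC79 with -13.4 beside -8.91. In all 4 the ranges of the lines did not overlap, which the same choice favours. METTL4/NDC80 had a median of 71.0 (61.4 to 76.3) in BT474 and 44.3 (24.3 to 51.8) in BT474R. GIN1/PPIP5K2 was split into several peaks in 9 BT474R and no BT474 libraries, and its difference was -29.5 on summed scores.

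Among regions with at least 5 neighbours, 6 differed by at least 10 points and lay 30 or more points from the neighbour median, and all 6 were lower in BT474R. They were chosen after their values were seen. The share of all tested regions that met this rule was not counted. Divergent regions stood high on the shared-region percentile, with a mean of the library medians of 76.7 in BT474 and 73.9 in BT474R. A high level leaves more room to fall than to rise, and its part in the shared direction was not tested. Besides LCMT2/ADAL the 6 regions included SBF2/ADM (adrenomedullin, a vasodilator peptide), IFIH1/GCA (the cytosolic RNA sensor MDA5 and grancalcin), GBA2/RGP1 and HSPA1L/HSPA1A. SBF2/ADM ranged from 76.9 to 88.7 (median 83.5) in BT474 and from 4.86 to 68.5 (median 30.1) in BT474R, and differed by -52.7 ± 2.48 points beside a neighbour median of -10.02. IFIH1/GCA ranged from 58.9 to 75.9 (median 71.9) and from 0.509 to 45.6 (median 24.9) and differed by -46.5 ± 2.11 points beside 0.21.

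GBA2/RGP1 differed by -40.1 points and HSPA1L/HSPA1A by -28.0. The HSPA1L/HSPA1A value was -11.1 on summed scores. In 12 BT474R and no BT474 libraries the region was split into several peaks, and HSPA1A has a near-identical copy, HSPA1B, with which it may share reads.

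**Figure D3:**
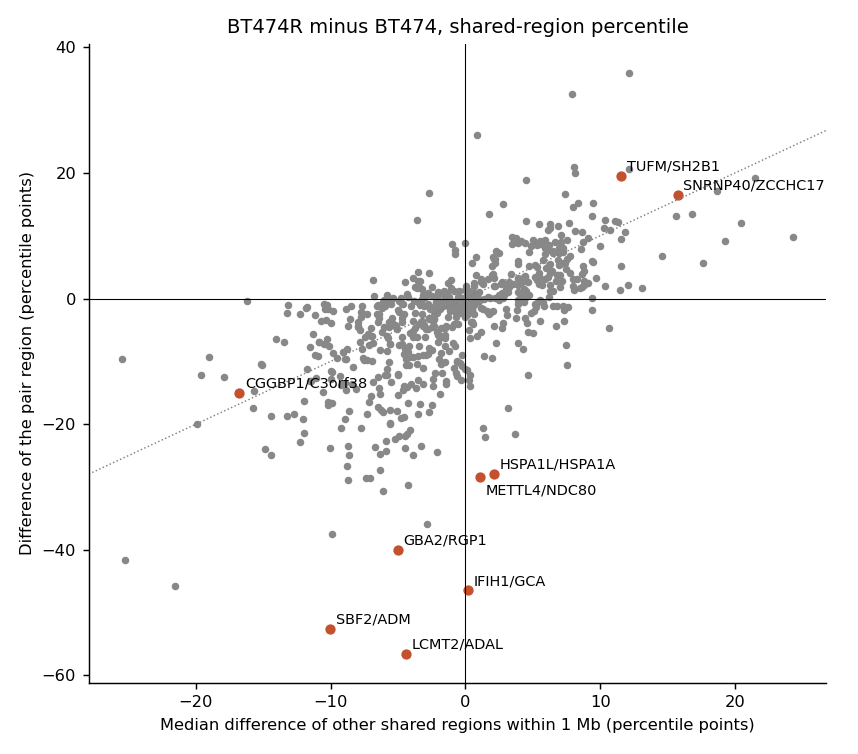
Difference of each of 665 divergent regions between the lines (BT474R minus BT474, percentile points on the shared-region scale, vertical) against the median difference of the other shared regions within 1 Mb (horizontal); the dotted line marks equality and red points the labelled pairs. Most regions follow their neighbours (Spearman correlation 0.711), while LCMT2/ADAL, SBF2/ADM and IFIH1/GCA lie at -56.6, -52.7 and -46.5 points with neighbour medians between -10.02 and 0.21.

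The known pairs were mostly near 0 on this scale. Those tested stood high in the lists, and the part of level in these values was not tested. PPAT/PAICS differed by -0.80 ± 0.383 points (adjusted p = 0.0585), NPAT/ATM by -0.44 ± 0.279 (adjusted p = 0.143) beside a neighbour median of -16.2, and TK1/AFMID by 1.73 ± 0.871 (adjusted p = 0.0697). PDCD10/SERPINI1 (-0.37), SARS2/MRPS12 (1.28) and PRKDC/MCM4 (-3.52) passed the test with small differences. TMEM258/FEN1 was the only one of the 7 tested with a difference over 10 points, at -13.6 ± 0.844 (adjusted p = 3.05e-13) beside -4.07.

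Groups of pairs were described by lists of genes. Of 37 regions with a DNA repair or replication gene, all were open in 40 libraries, with a median list percentile of 88.5 against 84.7 for all divergent regions. Between the lines 10 were called higher and 21 lower, with 2 and 7 past 10 points and a median of -1.67. RARS2/ORC3, which serves a mitochondrial arginyl-tRNA synthetase and a subunit of the origin recognition complex, was higher by 10.5 points and XRCC3/ZFYVE21 lower by 4.42. In the mitochondrial ribosome list 15 of 17 regions were tested (4 higher, 8 lower, median -1.69), with TCP1/MRPL18 at -28.6 points, a value of -6.95 on summed scores, and MRPL27/EME1 at -5.80. In mitochondrial respiration and import 29 of 30 were tested (9 higher, 13 lower, median -2.06), with WDR4/NDUFV3, which serves a subunit of complex I, at 14.6 and TIMM8B/SDHD at -23.6.

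Of 12 tested chaperone regions 5 were called higher and 5 lower (median 0.27), and APTX/DNAJA1 fell by 29.7 points and DCDC1/DNAJC24 by 21.6. Of 6 tested regions of the proteasome list 1 was higher and 4 were lower (median -8.10), among them PSME3IP1/RSPRY1 at -11.5, whose gene is named for a partner of a proteasome activator and is no subunit, while PSMD10/ATG4A was 9.77 higher. Of 12 tested histone regions 4 were higher and 4 lower and none was past 10 points, with H2AC25/H2BC26 at 6.36 and H3C7/H2BC9 at -5.86. Histone gene pairs had a median list percentile of 92.9. Zinc finger pairs had 6 higher and 15 lower of 27 tested (median -2.39), with ZNF558/MBD3L1 at -14.3 and the ZNF2 pair at 9.07. The 3 aminoacyl-tRNA synthetase pairs had 2 higher and 1 lower, with LYRM4/FARS2 at -3.84.

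In the antigen processing and interferon list all 3 regions were lower in BT474R: IFIH1/GCA, HES4/ISG15 at -17.7 (ISG15 is a ubiquitin-like protein induced by interferon) and PATL2/B2M at -5.90, where B2M is the light chain of MHC class I and the neighbour median was -5.86. In the hypoxia and glycolysis list all 3 were lower, SBF2/ADM by 52.7 and LRP2BP/ANKRD37 by 9.57 points among them. In the ERBB list 2 of 5 tested were higher and 2 lower. TIPIN/MAP2K1, where MAP2K1 encodes the kinase MEK1, fell by 16.3 points beside a neighbour median of -12.0, and SHC1/CKS1B, where SHC1 encodes an adaptor of ERBB receptors, rose by 1.84. The only purine synthesis pair was PPAT/PAICS and the only collagen pair with a region COL4A4/COL4A3. These counts stand beside the 81.7% of all divergent regions called, and the lists differ in size, so nothing is read as particular to a list.

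Some divergent promoters had a peak in only 1 of the lines. The intervals of the 3 pairs that were open in all 20 BT474 libraries and in no BT474R library are printed because presence separated the lines completely there. Capitals mark a GC box and a CCAAT box in the first, the ETS motif in the second and NRF1 in the third.
ZNF214/NLRP14 (chr11:7020346-7020479): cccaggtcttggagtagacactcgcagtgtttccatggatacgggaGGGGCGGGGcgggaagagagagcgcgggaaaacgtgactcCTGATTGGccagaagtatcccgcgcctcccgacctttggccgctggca
CAPS2/GLIPR1L2 (chr12:75390928-75391089): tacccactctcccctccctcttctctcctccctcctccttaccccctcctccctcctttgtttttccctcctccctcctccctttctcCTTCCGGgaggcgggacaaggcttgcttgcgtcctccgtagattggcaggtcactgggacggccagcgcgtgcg
LCP1/LRRC63 (chr13:46211871-46211928): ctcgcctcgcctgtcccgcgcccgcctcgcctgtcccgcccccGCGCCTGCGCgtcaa

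Of the 75 divergent regions not open in every library, 56 were open in all 20 BT474 libraries and 2 in all 20 BT474R libraries, and 36 were missing from 1 to 3 libraries only. In all, 746 (97.5%) were open in every BT474 library and 692 (90.5%) in every BT474R library, against 51.4% and 39.5% of all regions. With Fisher's exact test of open against closed libraries (20 against 20, two-sided, adjusted over 71600 regions) 17 divergent regions were called less often open in BT474R and 2 more often open, where 18.4% and 11% of all regions were called. Fewer than 45000 peaks were held by 8 BT474R lists. Without them 9 regions were called less often and 3 more often open, and the first 8 regions described next were called in both.

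ZNF214/NLRP14, CAPS2/GLIPR1L2 and LCP1/LRRC63 (LCP1 is the actin-bundling protein L-plastin) had adjusted p = 4.18e-10 each by Fisher's exact test. Their list percentiles in BT474 were 27.0 to 47.3 (median 37.5), 27.2 to 46.8 (median 38.3) and 20.04 to 38.5 (median 29.0), which is weak for a divergent promoter. The left of 2 regions at COG4/SF3B3 was open in 20 and 2 libraries, HMGN5/SH3BGRL in 20 and 5, and LSM7/SPPL2B in 16 and 1, with mean percentiles of 18.9, 20.7 and 10.1 in BT474. At scores of at least 400 the calls at LCP1/LRRC63, COG4/SF3B3, HMGN5/SH3BGRL and LSM7/SPPL2B were lost.

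In the other direction, RSPH14/RAB36 (a radial spoke protein and a RAB GTPase) was open in 5 BT474 libraries at 0.102 to 12.7 and in 20 BT474R libraries at 43.0 to 72.5 (adjusted p = 6.91e-06, Fisher's exact test). The right of 2 regions at SMIM7/TMEM38A was open in 0 and 7 libraries (adjusted p = 0.0291, Fisher's exact test), a call that was lost at scores of at least 400, while the left region was open in all 40.

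Among the pairs called but not named by the rule, HRAS/LRRC56, which serves the RAS GTPase downstream of ERBB receptors, was open in 20 and 6 libraries (adjusted p = 2.60e-05, Fisher's exact test). It ranged from 3.62 to 46.0 (median 23.8) in BT474 and from 4.12 to 24.3 in the 6 open BT474R libraries. COL4A4/COL4A3, which was named as a textbook pair, was open in 20 and 13 libraries (adjusted p = 0.0291, Fisher's exact test). It stood at 61.0 to 85.1 (median 70.9) in BT474 and at 0.324 to 45.6 (median 11.5) in the 13 open BT474R libraries. Its ranges did not overlap even where a peak was called. Of its 7 BT474R libraries without a peak, 5 were of 12 h. PSMA1/PDE3B, which serves a proteasome core subunit, was open in 20 and 11 libraries at mean percentiles of 73.3 and 30.7. Of the 19 calls, 11 held without the 8 short BT474R lists. HRAS/LRRC56 kept its call, with 6 of 12 BT474R libraries open (adjusted p = 0.00503, Fisher's exact test). COL4A4/COL4A3 lost it, with 11 of 12 open (adjusted p = 0.767, Fisher's exact test), and so did PSMA1/PDE3B, with 10 of 12 open (adjusted p = 0.321, Fisher's exact test).

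**Figure D4:**
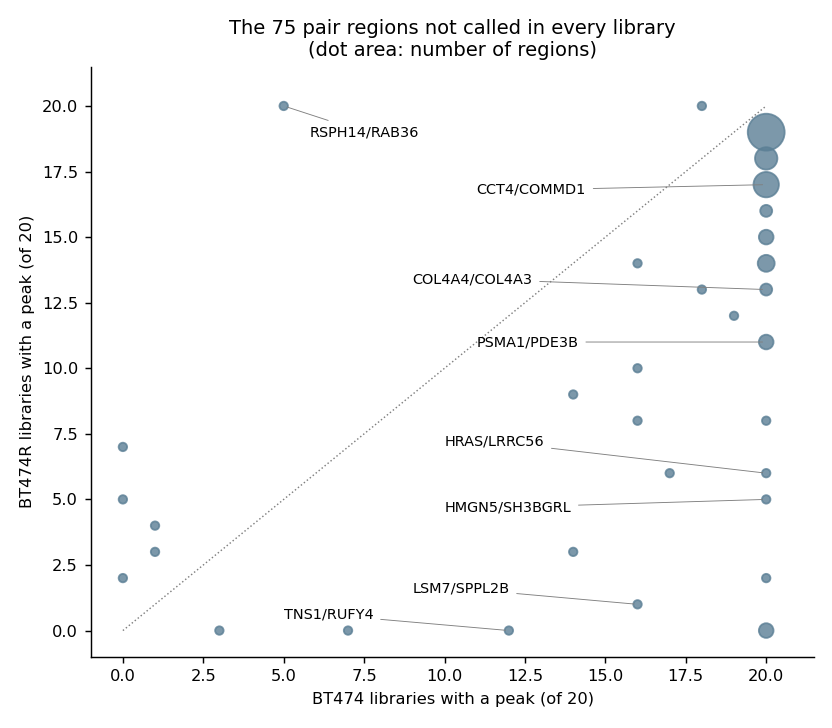
Number of BT474 (horizontal) and BT474R (vertical) libraries with a peak, each of 20, for the 75 divergent regions not open in all 40; dot area grows with the number of regions and the dotted line marks equal numbers. The right edge holds the 56 regions open in all 20 BT474 libraries, and RSPH14/RAB36 stands at 5 and 20.

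The next comparisons asked which divergent promoters differed after a ligand from vehicle at the same times, averaged over 1, 12 and 24 h with 6 libraries against 6. After EGF in BT474, 3 of 746 tested regions were higher and 56 lower, where 11.7% and 5.85% of all 36820 regions were called higher and lower. After HRG in BT474 it was 3 and 33, where 12.7% and 9.69% of all regions were called. In BT474R, EGF gave 3 higher and 19 lower of 692, where 11% and 8.49% of 28260 regions were called, and HRG gave 1 and 2, where 2.84% and 0.824% were called. Of single starts, 0.880% were called higher and 8.32% lower after EGF in BT474, against 0.402% and 7.51% of divergent regions. After HRG in BT474 the single starts had 1.12% and 6.81%. In BT474R they had 1.12% and 3.07% after EGF and 0.221% and 0.360% after HRG. The 2 ligand comparisons of a line share their control libraries. The excess of lower over higher calls depended on the scale: on the list percentile, EGF in BT474 gave 15 higher and 8 lower divergent regions. On the shared scale the divergent regions had median differences of -0.93 points for EGF and -0.66 for HRG in BT474. In BT474R these were -0.93 and -0.74. In the same order the medians were -0.51, -0.72, -0.65 and -0.58 for all regions and -1.55, -1.08, -1.06 and -0.85 for single starts. The pairs named next were chosen by the smallest p of these comparisons, which favours ranges without overlap. For the ligands too, the share of all regions without overlap was not counted.

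RDH13/EPS8L1 (a retinol dehydrogenase and a relative of the EGFR substrate EPS8) was called higher with both ligands in BT474 and with EGF in BT474R. In BT474 its percentile was 51.2 to 58.4 (median 54.0) in control, 57.0 to 66.9 (median 60.9) with EGF and 58.8 to 66.3 (median 59.8) with HRG. HRG did not overlap with control and EGF did. The differences were 6.88 ± 1.60 (adjusted p = 0.0103, limma) and 6.99 ± 1.60 points, beside neighbour medians of -0.94 and -0.77. With EGF in BT474R it stood at 60.4 to 63.8 against 48.1 to 61.6 in control, a difference of 7.92 ± 2.38 points (adjusted p = 0.0327, limma). The call was lost on leaving out any one of 9 libraries, all of them BT474R control or EGF libraries, with adjusted p up to 0.0910.

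Some higher calls were small or rested on few libraries. NEDD8/GMPR2 with EGF in BT474 differed by 0.75 points and ACTR1B/C2orf92 with EGF in BT474R by 0.76, and both calls were lost on leaving out any one of 4 and 9 libraries. TLCD3B and its unnamed partner ENSG00000285043 differed by 16.2 ± 5.20 points with HRG in BT474 (adjusted p = 0.0397, limma), while its control libraries ran from 29.6 to 66.8, and the call was lost on leaving out any one of 12 libraries. EXTL2/SLC30A7 with HRG in BT474R differed by 4.11 points, and by 0.16 on summed scores (adjusted p = 0.700, limma). It was held as several peaks by 5 of 6 control and 4 of 6 HRG libraries.

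EXOSC5/BCKDHA, which serves a subunit of the RNA exosome and one of the branched-chain ketoacid dehydrogenase, fell with both ligands in BT474. Its percentile was 63.9 to 68.2 (median 66.1) in control, 47.5 to 66.5 (median 61.0) with EGF and 48.0 to 67.7 (median 53.5) with HRG. All ligand libraries of 12 and 24 h lay below all control libraries, and those of 1 h overlapped. The differences were -8.10 ± 1.61 (adjusted p = 0.0040, limma) and -10.1 ± 1.61 points. With HRG 3 of 6 libraries split the region and no control library did, and the HRG difference was -4.85 on summed scores (adjusted p = 0.0196, limma), while with EGF it was -8.29.

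IFT25/LRRC42, which serves a protein of intraflagellar transport, stood at 92.004 to 93.5 (median 92.6) in control, 89.3 to 90.7 (median 90.4) with EGF and 90.0 to 91.3 (median 90.7) with HRG in BT474, with no overlap between control and either ligand. The differences were -2.55 ± 0.328 and -1.85 ± 0.328 points, beside neighbour medians of -1.57 and -1.78. TNNC2/SNX21 had 77.9 to 82.5 in control, 74.4 to 78.0 with EGF and 72.9 to 78.5 with HRG, and differences of -4.92 and -5.21 points. ENSG00000255432 and C11orf98, which share CSKMT as a partner, fell by 4.64 points with HRG.

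ANKRD16/FBH1 was called lower by 3.09 points with EGF in BT474, which rested on the 24 h libraries at 86.5 and 87.6 against 95.2 to 96.4 for the other EGF libraries. EGF libraries held it as several peaks in 4 of 6 cases and control libraries in 1 of 6, and on summed scores the difference was -0.51 (adjusted p = 0.276, limma).

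In BT474R, METTL26/MCRIP2 stood at 81.3 to 84.9 (median 83.9) in control, 75.8 to 80.2 (median 79.1) with EGF and 77.9 to 80.6 (median 79.6) with HRG, without overlap. The differences were -4.90 ± 0.961 (adjusted p = 0.0029, limma) and -4.11 ± 0.961 points, beside neighbour medians of -2.98 and -1.89. With EGF, ANKRD34A/POLR3GL (POLR3GL is a subunit of RNA polymerase III) fell by 6.78 points, RPL35/ARPC5L by 1.75 and PIGP/TTC3 by 20.02, a value of -7.35 on summed scores. With HRG, KRTCAP2/TRIM46 fell by 2.84 points. The HRG calls of METTL26/MCRIP2 and KRTCAP2/TRIM46 were lost on leaving out any one of 11 and 16 libraries, with adjusted p up to 0.0938 and 0.139.

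**Figure D5:**
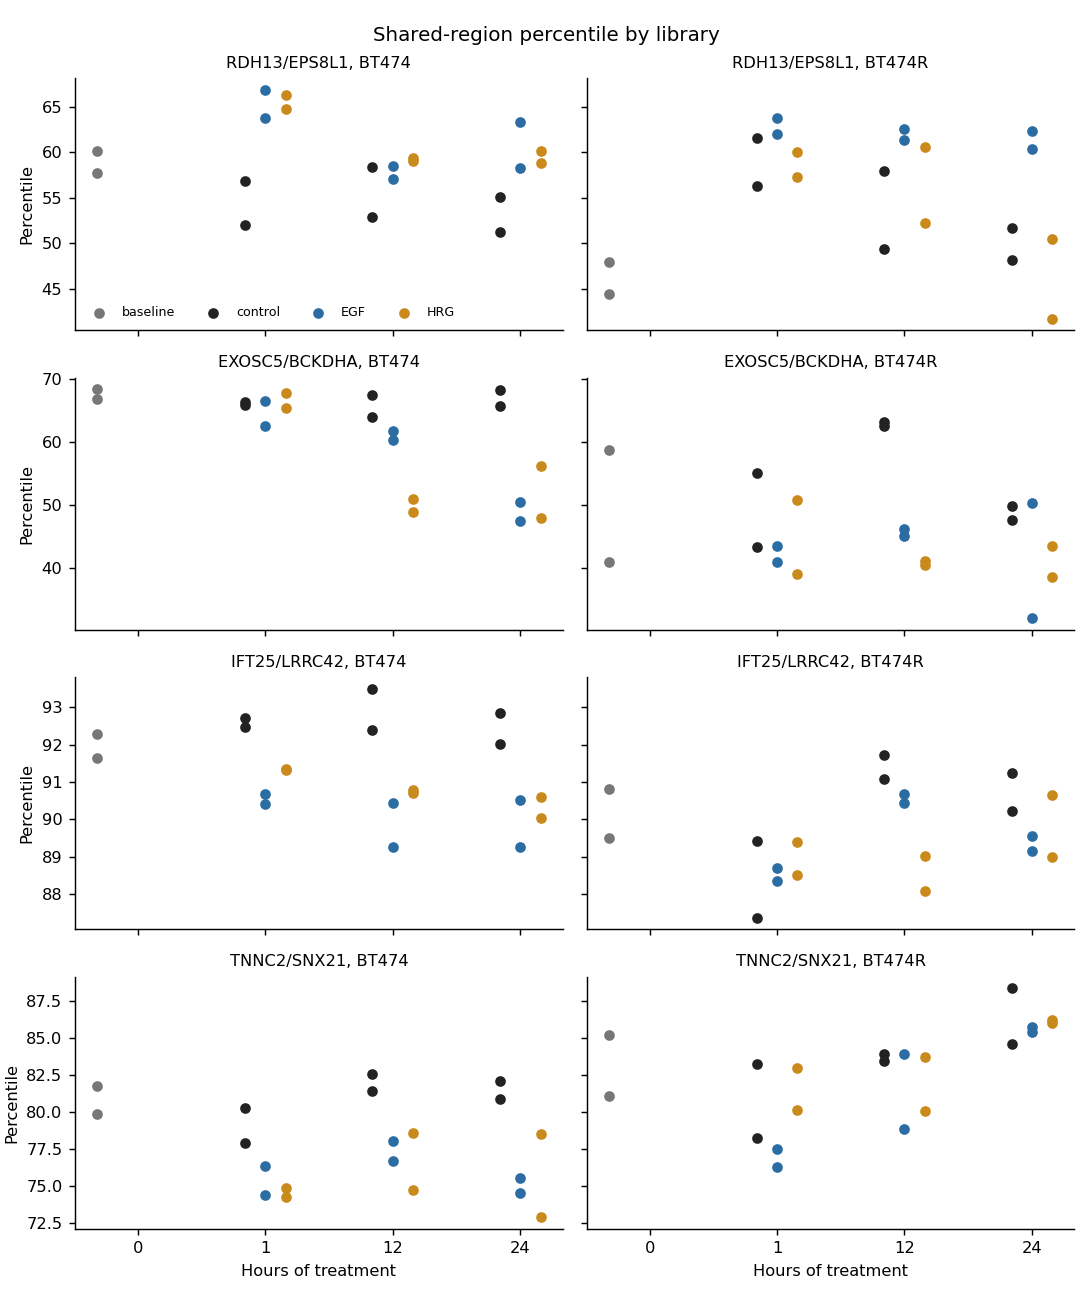
Shared-region percentile (0 to 100) of 4 divergent regions in each library of BT474 (left) and BT474R (right) by hours of treatment, with 2 points per arm and time, grey baseline, black control, blue EGF and yellow HRG. Ranks are among the shared regions of each line alone, so left and right do not compare the lines. The vertical axes differ between rows and do not start at 0. In BT474 TNNC2/SNX21 lies between 74.4 and 78.0 with EGF against 77.9 to 82.5 in control, and IFT25/LRRC42 between 89.3 and 90.7 with EGF against 92.004 to 93.5.

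At single times, with 2 libraries against 2, 104 of 746 divergent regions in BT474 and 15 of 692 in BT474R were called in at least 1 of the 6 contrasts of a line, where 29% and 11.8% of all regions were. In BT474 the divergent regions called higher and lower at 1 h numbered 1 and 2 with EGF and 6 and 1 with HRG. At 12 h they numbered 2 and 26 with EGF and 2 and 24 with HRG. At 24 h they numbered 3 and 49 with EGF and 1 and 20 with HRG. Of all 36820 regions at 1 h, 3.21% were called higher and 2.97% lower with EGF, and 4.92% and 5.78% with HRG. At 12 h the shares of all regions were 5.32% and 2.17% with EGF and 6.41% and 3.57% with HRG. At 24 h they were 8.90% and 3.94% with EGF and 9.16% and 3.42% with HRG. Of single starts at 1 h, 0.567% were called higher and 0.555% lower with EGF, and 1.00% and 1.01% with HRG. Of single starts at 12 h, 0.374% were called higher and 3.76% lower with EGF, and 0.591% and 2.72% with HRG. At 24 h these shares were 0.820% and 6.78% with EGF and 0.591% and 4.24% with HRG. The intervals of LYRM4/FARS2 and POLE/PXMP2, both among the foremost lower regions at 24 h of EGF, are printed with a GC box in capitals (POLE/PXMP2 also a CCAAT box). They were picked partly for the GC box, which lay in 23.3% of all divergent windows, and a link to the ligand was not tested. LYRM4 acts in iron-sulfur cluster assembly, FARS2 is the mitochondrial phenylalanyl-tRNA synthetase and POLE the catalytic subunit of DNA polymerase epsilon.
LYRM4/FARS2 (chr6:5260950-5261044): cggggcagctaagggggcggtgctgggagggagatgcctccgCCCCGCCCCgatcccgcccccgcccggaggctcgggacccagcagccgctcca
POLE/PXMP2 (chr12:132687376-132687587): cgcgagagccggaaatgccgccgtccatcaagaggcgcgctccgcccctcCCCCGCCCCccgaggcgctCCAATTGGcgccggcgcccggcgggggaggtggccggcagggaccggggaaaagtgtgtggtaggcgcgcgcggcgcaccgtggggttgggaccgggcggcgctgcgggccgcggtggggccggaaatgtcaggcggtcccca

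LYRM4/FARS2 stood at 85.8 and 83.5 in the EGF 24 h libraries of BT474 against 90.4 and 89.4 in control, and at 74.7 and 74.3 in the EGF 12 h libraries of BT474R against 82.9 and 86.0. Both were called. EXOSC5/BCKDHA at 24 h stood at 47.5 and 50.5 with EGF against 65.7 and 68.2 in BT474. Among the foremost higher regions were the TLCD3B pair (HRG 12 h), IFT20/TNFAIP1 (HRG 1 h) and RDH13/EPS8L1 (HRG 1 h), the last at 64.8 and 66.3 against 56.9 and 52.0. In BT474R the called regions included EXTL2/SLC30A7 (HRG 12 h) as higher and CASKIN2/TSEN54 (HRG 12 h), the TLCD3B pair (EGF 1 h) and GON4L/SYT11 (EGF 24 h) as lower. On summed scores 3 of these calls in BT474R were lost. There CASKIN2/TSEN54 differed by -3.49 points in place of -17.9 (adjusted p = 0.623, limma), EXTL2/SLC30A7 by 0.42 in place of 10.3 (adjusted p = 0.629, limma) and the TLCD3B/ENSG00000285043 pair by -3.64 in place of -31.1 (adjusted p = 0.851, limma). With a library left out a group of 2 rests on 1, and of these the calls of the TLCD3B pair (both), IFT20/TNFAIP1, RDH13/EPS8L1, LYRM4/FARS2 (BT474R) and GON4L/SYT11 were lost for at least 2 choices of the library.

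The ligand effects were compared between the lines by the interaction term of limma. It was called for 2 of 690 divergent regions, where 4.39% of all 25166 regions were called for at least 1 ligand. Both concerned EGF. At IFT25/LRRC42 the EGF difference was -2.55 ± 0.328 points in BT474 and -0.70 ± 0.475 in BT474R, and in the fit of both lines the 2 effects differed by 2.92 ± 0.698 (adjusted p = 0.0242, limma). At TEPSIN/NDUFAF8 it was -2.75 ± 0.579 and 0.58 ± 0.771, differing by 4.61 ± 1.204 (adjusted p = 0.0409, limma). The effects within a line come from ranks among that line's shared regions, so they do not subtract to the difference from the fit of both lines. With 1 of the 40 libraries left out, the call at IFT25/LRRC42 was lost for 6 choices of the library and that at TEPSIN/NDUFAF8 for 22. Both were lost without BT474 EGF 24 h replicate 2, BT474 control 12 h replicate 1, BT474R control 1 h replicate 1 or BT474R control 24 h replicate 1, and also on the list percentile, on the −log10 p-value and with the replicate number as a block. For HRG no divergent region was called by limma, with 25 at an unadjusted p under 0.05.

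The presence of a peak could vary at few divergent promoters, as 746 were open in every BT474 library and 692 in every BT474R library. A test of ligand against control by presence therefore says little about them. Fisher's exact test with 6 libraries against 6 called 0 of 765 regions in BT474 and 0 in BT474R for either ligand, with 0 at an unadjusted p under 0.05, where 0% of all 71600 regions were called in either line. The smallest p that 6 libraries against 6 can give passes the adjustment over 71600 regions only if many regions reach it. Of all regions, 855 with EGF and 1172 with HRG in BT474 had an unadjusted p under 0.05, and 278 and 148 in BT474R. The test could thus hardly call any region, and the 0 calls are not read as stability.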

How the data were processed

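Omni-ATAC libraries of BT474 and BT474R cells were sequenced by the authors, who trimmed the reads with Trim Galore 0.6.6, aligned them with BBMap to a GRCh38 assembly and called peaks in each library separately with Genrich, leaving out mitochondrial reads and blacklisted regions. The options of the caller are not stated in the sources. Each deposited list gives, per the authors' peak caller, a score (the area under the curve of significance), the −log10 p-value and the −log10 q-value of each peak. Read counts were not used here, so depth was unknown, and precision was limited by 2 libraries per group.

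Peaks on chromosomes 1 to 22 and X were merged over the 40 lists with an overlap of at least 1 bp, and regions in at least 2 lists were kept (71600). Gene starts came from GENCODE release 44. A region took the top score of its peaks in a library. The list percentile is its rank within the library's list, and the shared-region percentile its rank among regions with a peak in every library of the fit. Percentiles were fitted with limma 3.58.1 (R 4.3.3) with a mean per group, separately by line for ligands and over both lines for the line and its interaction with a ligand. Presence was tested with Fisher's exact test (scipy 1.17.1). All p-values were two-sided and adjusted by Benjamini-Hochberg over all regions tested, with a threshold of 0.05. The scripts were tested on simulated data. Named pairs were the 6 with the smallest p in each direction for the line, the 4 for each ligand contrast and for the single times of a line, the textbook pairs, the 4 highest and 4 lowest levels, and 2 pairs per gene list. Members and lists were chosen with earlier results of these data known. Alternatives were the list percentile, the log2 of the score, the −log10 p-value in place of the score, scores of at least 400, the 32479 strongest peaks of each list, 50% coverage of the region, a replicate block and each library left out. Summed scores and leaving out 8 short BT474R lists were added after seeing the data. Some named items are not reported here.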

Additional observations from a re-analysis of the deposited data

Results flagged for a closer look

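The effect of EGF differed between the lines at 2 divergent promoters by the interaction term of limma. In the fit of both lines it was larger (less negative) at IFT25/LRRC42 in BT474R by 2.92 percentile points, and at TEPSIN/NDUFAF8 by 4.61. The library values given next are ranks among the shared regions of each line alone, so they do not compare the lines. At IFT25/LRRC42 BT474 stood at 92.004 to 93.5 in control and 89.3 to 90.7 with EGF, and BT474R at 87.4 to 91.7 and 88.3 to 90.7. On the scale of both lines its medians were 87.0 in BT474 and 88.2 in BT474R. The BT474 control libraries of TEPSIN/NDUFAF8 stood at 85.6 to 89.6 and the EGF libraries at 83.3 to 86.1, and in BT474R they stood at 79.1 to 87.5 and 82.0 to 85.8. The control and EGF libraries of IFT25/LRRC42 were apart in BT474, and the other 3 comparisons overlapped. With 1 library left out, IFT25/LRRC42 lost its call for 6 of 40 choices and TEPSIN/NDUFAF8 for 22, and both lost it with the replicate block (adjusted p = 0.0631 and 0.0633, limma). Of all 25166 regions 4.39% were called for at least 1 ligand. In 18 sets of 4 to 10 libraries no library stood apart from the rest by Dixon's criterion.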

How the results depend on the processing

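The count for the line by rank (564) stayed within 1.5 times under every alternative run, between 555 and 572 with 1 library left out. No ligand call by presence appeared, which says little because that test could hardly call any region. The ligand counts moved. On the list percentile they were 23 (15 higher, 8 lower) for EGF and 17 for HRG in BT474, 4 for EGF in BT474R, 57 for single times in BT474 and 1 for ligand by line. On the log2 score they were 306, 97, 239 for single times in BT474 and 1 for ligand by line. On the −log10 p-value EGF in BT474 gave 106 and ligand by line 5. At scores of at least 400, HRG in BT474R gave 1, single times in BT474R 9 and ligand by line 1, and ligand by line gave 1 with equal numbers of peaks and 5 on summed scores. For the line by presence (19), the counts were 50 at scores of at least 400, 32 with equal numbers of peaks, 91 where 50% of the region had to be covered and 12 without the 8 short BT474R lists. The cause was not tested.

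Leaving out 1 library gave 29 (without BT474 EGF 12 h replicate 2) to 151 (without replicate 1 of that group) for EGF in BT474, 17 (control 24 h replicate 1) to 61 (HRG 24 h replicate 1) for HRG in BT474, 11 (EGF 1 h replicate 1) to 38 (baseline replicate 1) for EGF in BT474R and 1 (EGF 1 h replicate 1) to 11 (control 12 h replicate 2) for HRG in BT474R. It gave 46 to 212 for single times in BT474, 5 to 38 for those in BT474R, 0 to 5 for ligand by line and 19 to 25 for the line by presence.

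The replicate numbers are only numbers in the labels. Deviations of same-numbered libraries correlated above 0.1 in 2 of 9 pairs of groups in BT474 and 3 of 9 in BT474R. The latter were all those of 24 h (0.287, 0.117 and 0.296). Pairing was taken only where every pair lay above 0.1, so the numbers were not taken as pairing. With the replicate block the counts were 37 for EGF in BT474, 37 for EGF and 8 for HRG in BT474R, 32 for single times in BT474R and 1 for ligand by line.

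Of the values of 58 named results under the alternatives, 1818 kept their direction and side of the threshold, 144 kept the direction only and 4 reversed, none of the 4 past the threshold. NEDD8/GMPR2 with EGF in BT474 was -0.022 on the log2 score. On the −log10 p-value, ACTR1B/C2orf92 with EGF in BT474R was -0.74, EXTL2/SLC30A7 with HRG in BT474R -0.82 and the TLCD3B pair with EGF at 1 h in BT474R 10.4. Without read depths, a missing peak cannot be told apart from one under the caller's threshold.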
